A study of Mus musculus with 6 samples.

Results

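The serpins, a family of serine protease inhibitors and related proteins, were followed in infarcted mouse hearts after blockade of the microRNA miR-433. Members were all gene probes whose name in the scanner files is Serpin followed by a clade letter from a to i and a number, which gave 78 probes for 61 genes. Of these, 35 genes had a probe that 3 or more of the 6 arrays read well above background, and these were tested, among 22991 genes tested in all. Both groups were male C57BL/6 mice, 8 weeks old, with the left anterior descending coronary artery tied off, and hearts were taken 21 days later. In the antagomir group the animals had received, before the ligation, 80 mg/kg of an oligonucleotide that blocks miR-433, through the tail vein on 3 consecutive days. In the control group they had received a scrambled oligonucleotide. Each group had 3 arrays, and no heart without an infarct belongs to the groups compared. Whether the arrays stand for separate mice, and which part of the heart was sampled, is not in the labels, so p-values measure the spread between these samples. The oligonucleotides were given into the blood and were not targeted to a cell type. From the mouse RefSeq table, which holds miR-433-3p and miR-433-5p, the mature miR-433-3p is shown with its seed (bases 2 to 8) in capitals:
mmu-miR-433-3p: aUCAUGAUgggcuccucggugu

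An inhibitory serpin offers a protease an exposed loop, and cleavage of the loop traps the protease in a covalent complex that is then cleared by cell surface receptors. Some members have lost inhibition and serve other roles, such as the collagen chaperone HSP47. Clade A holds most of the inhibitors of plasma, which the liver makes, clade B those that stay inside cells, and the smaller clades include the regulators of clotting, plasmin formation and complement. In mice the human genes for alpha-1-antitrypsin (Serpina1) and alpha-1-antichymotrypsin (Serpina3) each correspond to a cluster of near copies.

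Levels are log2 processed signals minus the 75th percentile of the array, and differences are antagomir minus control on that log2 scale. All 7 cardiomyocyte markers, among them Myh6 and Tnnt2, were well above background on every array. Antagomir array 3 read 73.6% of its gene spots well above background, and the other 5 arrays 55.2% to 58.5%. Of the 78 serpin probes, between 40 and 44 were well above background on those 5 arrays and 51 on antagomir array 3. In 32 serpin probes that were dim on the other 5 arrays, 10 were above background on antagomir array 3. Those 10 had a median purine (A and G) share of 55.8%, against 46.7% in the 22 that stayed dim. Over all gene probes dim on the other 5 arrays, 8866 of 20226 were above background there, with medians of 56.7% and 48.3%. Antagomir array 3 therefore stands apart at low signal, and values that rest on it are given with and without it. The number of arrays limits the precision.

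No serpin passed the test over all genes (limma, Benjamini-Hochberg adjusted p under 0.05), and over all genes 3 passed, or 0.013% of those tested. At an unadjusted limma p under 0.05, 3 serpins were lower, Serpinf1, Serpina3n and Serpina9, and 1 was higher, Serpina10. Over all genes tested, 4.16% met that limit in the lower direction, 3.05% in the higher and 7.21% in either. In 2 serpins, Serpinf1 and Serpina9, the groups did not overlap and the antagomir arrays were the lower ones, as in 6.93% of all genes. In 4 they were the higher ones, as in 8.78% of all genes, namely Serpina10, Serpina1f, Serpina3c and Serpina3f. Of these, Serpina1f was dim on 2 control arrays and Serpina3f on antagomir array 3. These counts of serpins lie near the background. By sign, 17 of 35 were lower (37.4% of all genes were) and 18 higher (62.6% of all genes), with a median of 0.12 against 0.09 over all genes tested. The clades differed in their values: the median was 0.77 over 17 clade A genes, −0.11 over 10 clade B genes and −0.48 over 8 genes of clades C to I. Without antagomir array 3 the clade A median was −0.22, 26 of 35 serpins were lower and the median of all 35 was −0.27, while 42.6% of all genes were lower. With quantile normalization 20 of 35 serpins and 54.2% of all genes were lower, and with each array centred on its median 22 of 35 and 87.0%.

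**Figure D1:**
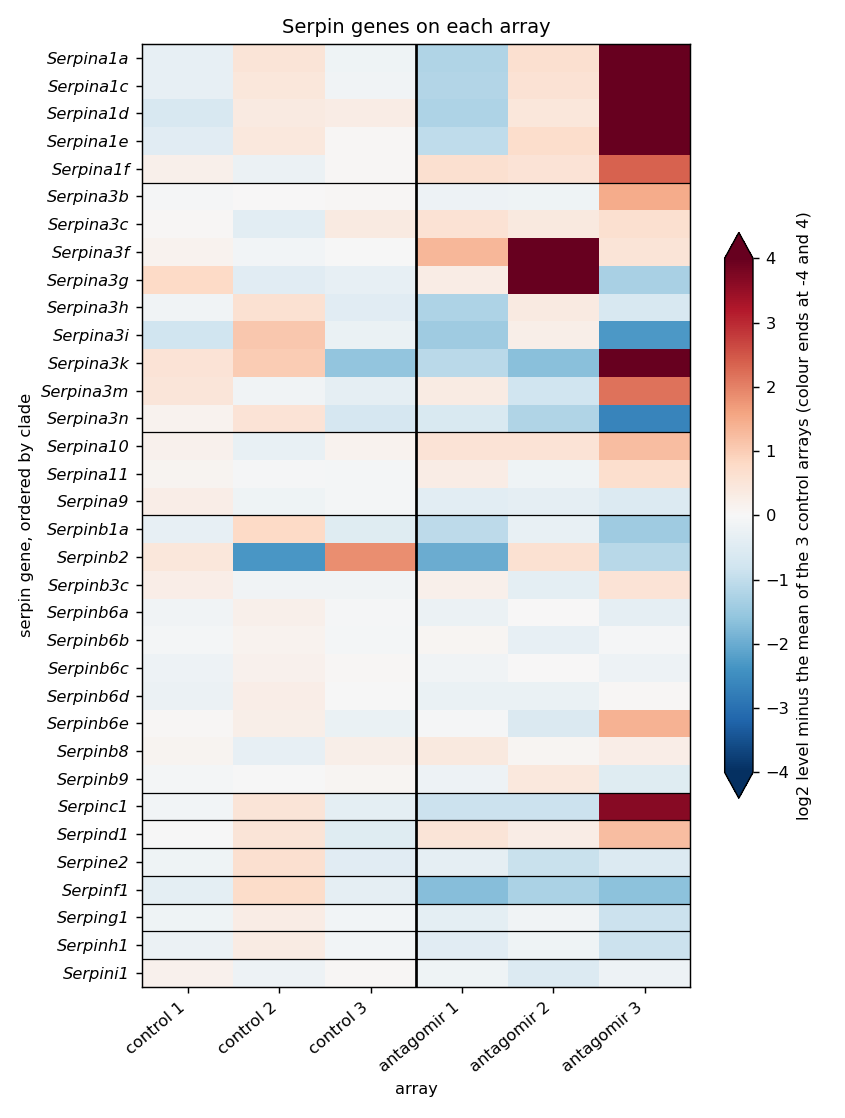
Each row is 1 of 34 of the 35 serpin genes tested, ordered by clade, and each column 1 array; colour gives the log2 level minus the mean of the 3 control arrays. Serpina1a, Serpina1c, Serpina1d, Serpina1e, Serpina3k and Serpinc1 are dark on antagomir array 3, and Serpina3f and Serpina3g on antagomir array 2, while Serpinf1 is below the control mean on all 3 antagomir arrays.

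Serpinf1, the gene of pigment epithelium-derived factor (PEDF), a secreted serpin without protease inhibition that restrains vessel growth, had the smallest p of the family. Its levels were 5.17, 6.28 and 5.20 in controls 1 to 3 and 3.85, 4.29 and 3.90 after the antagomir (arrays 1 to 3). All antagomir arrays lay below all control arrays. The difference was −1.54 (SE 0.34, 95% interval −2.36 to −0.71, n = 3 per group), or 2.90-fold lower, with a limma adjusted p of 0.545 over all genes. The probe lies at chr11:75223582-75223641 (mm9), and a further Serpinf1 probe gave −1.40 (SE 0.38). With 1 array left out the difference ran from −1.73 to −1.17, the smallest in size without control array 2. In heart tissue measured in bulk, fewer cells of a type and less RNA per cell cannot be told apart. The fibroblast marker list was lower for 8 of 8 members, all above background on every array, with a summed linear level of 742 to 975 on control arrays and 383 to 570 on antagomir arrays. Its part in the Serpinf1 value was not tested. Within that list Dcn, the gene of decorin, had a difference of −0.002, Pdgfra −0.35, Lum −1.59 and Col1a1 −2.82.

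Upstream of Serpinf1, the 250 bases before the RefSeq start (chr11:75422624-75422873, minus strand, GRCm38.p6) are shown because this gene had the clearest separation. They hold CAGACA, a box of the kind Smad proteins bind, 38 bases before the start, in capitals below. On either strand, 17.1% of all promoters in the RefSeq table hold that box in the same window, and 10 of 59 serpin promoters do. Among these are promoters of Serpinh1, Serpina11, Serpina1d and Serpina3f, with differences of −0.49, 0.26, 1.08 and 2.25. The match is a description of the sequence only.
Serpinf1: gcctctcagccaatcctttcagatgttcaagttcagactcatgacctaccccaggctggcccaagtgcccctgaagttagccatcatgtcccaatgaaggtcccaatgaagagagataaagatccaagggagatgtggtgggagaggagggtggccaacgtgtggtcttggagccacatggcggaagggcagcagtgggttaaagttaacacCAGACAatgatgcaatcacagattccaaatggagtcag

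Serpine2, the gene of protease nexin-1, which inhibits thrombin and urokinase at the cell surface, had levels of 0.13, 0.95 and −0.14 in controls and −0.055, −0.58 and −0.21 with the antagomir. Antagomir array 1 lay above control array 3, so the groups overlapped. The Serpine2 difference was −0.60 (SE 0.32, limma adjusted p = 0.691), and −0.28 without control array 2. Serpini1, the gene of neuroserpin, a tissue plasminogen activator inhibitor best known from neurons, had a difference of −0.30 (SE 0.18) and its other probe −0.19 (SE 0.19). With the slide row as a block Serpine2 was at −0.14, while Serpinf1 was at −1.19 and Serpina3n, a clade A gene described with its cluster, at −0.81. Control arrays 1 and 2 have slide row 1 to themselves, so in that fit the antagomir arrays are set against control array 3.

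Serping1 and Serpinh1 were above background on every array and differed by less than Serpinf1. Serping1 encodes C1 inhibitor, which blocks the proteases that start the classical complement pathway and plasma kallikrein. Its levels were 6.40, 6.87 and 6.48 in controls and 6.20, 6.45 and 5.72 with the antagomir. Antagomir array 2 lay within the control range. The difference was −0.46 (SE 0.24, limma adjusted p = 0.691), −0.26 without antagomir array 3, and its other probe gave −0.40. Serpinh1 encodes HSP47, the endoplasmic reticulum chaperone of procollagen. It had levels of 4.54, 5.11 and 4.67 in controls and 4.32, 4.60 and 3.92 with the antagomir, which overlapped at antagomir array 2. The difference was −0.49 (SE 0.24, 95% interval −1.09 to 0.10, limma adjusted p = 0.691). Without antagomir array 3 it was −0.31 and without control array 2 −0.32.

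The collagens that HSP47 binds and its partners in collagen folding were read from a list of 30 genes, 27 of them tested. The median was −0.32, from 21 lower members and 6 higher ones, with 0 past the limma adjusted threshold, and with an unadjusted p under 0.05 in 12 that were lower (4.16% of all genes) and 1 that was higher (3.05%). The collagen chains tested ran from −3.33 (SE 0.53) for Col3a1 to −0.63 (SE 0.23) for Col4a2, compared with −0.49 for Serpinh1. The partners ran from −1.01 (SE 0.34) for Kdelr3, a receptor that returns chaperones to the endoplasmic reticulum, to 0.51 (SE 0.19) for Tmem38b. Among the partners, Kdelr3, Crtap (−0.64, SE 0.20) and Plod2 (−0.64, SE 0.28) reached the range of the collagen chains. The other partners tested had differences smaller in size than every collagen chain tested. The difference between Serpinh1 and these genes was not tested.

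**Figure D2:**
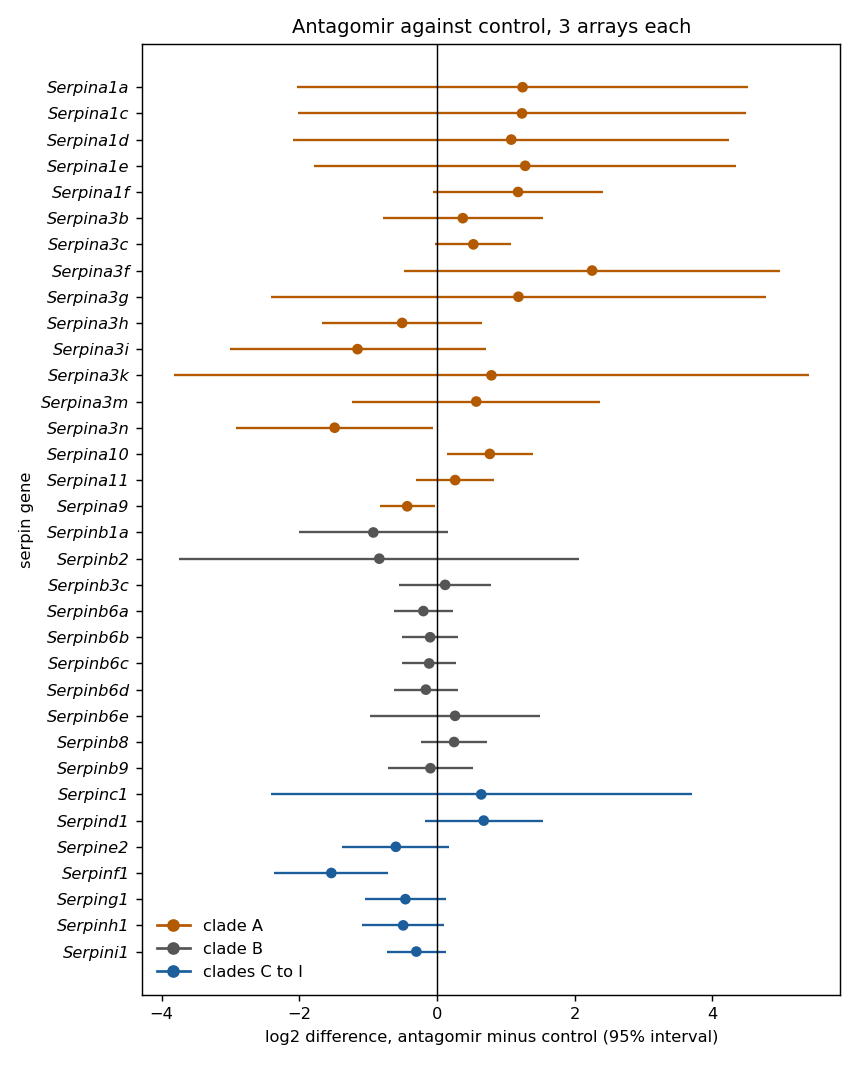
Points are log2 differences (antagomir minus control) of 34 of the 35 serpins tested and lines their 95% intervals from limma; colours mark clade A, clade B and clades C to I. Intervals of Serpinf1, Serpina3n and Serpina9 lie below 0 and that of Serpina10 above 0 before any adjustment over genes, and those of Serpina3k, Serpina3g, Serpina1a, Serpina1c, Serpina1d, Serpina1e and Serpinc1 are the widest of those drawn.

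Among the intracellular clade B serpins, most of the Serpinb6 genes differed little between groups, while Serpinb1a and Serpinb2 had larger differences and wider spreads. Serpinb6a, whose protein inhibits cathepsin G, had levels from 5.53 to 5.89 in controls and from 5.31 to 5.70 with the antagomir, a difference of −0.20 (SE 0.17, 95% interval −0.62 to 0.23). Serpinb6b (−0.10, SE 0.17), Serpinb6c (−0.11, SE 0.16) and Serpinb6d (−0.16, SE 0.19) had differences of like size. Serpinb6d was much lower in signal, at levels of −3.63 to −3.09, and its difference was −0.98 with the authors' normalized table. The Serpinb6c probe differs from that of Serpinb6a in 3 of 42 overlapping bases, so the copies may share signal. Serpinb8 (0.25, SE 0.20) and Serpinb9, the granzyme B inhibitor that protects killer cells from their own granules (−0.096, SE 0.25), overlapped between groups. The interval of Serpinb9, −0.71 to 0.52, leaves room for a difference either way. Serpinb1a, an inhibitor of neutrophil elastase, cathepsin G and proteinase 3 that myeloid cells hold in quantity, had the difference of largest size within the clade. Its levels were 1.57, 2.69 and 1.40 in controls and 0.84, 1.59 and 0.45 with the antagomir, a difference of −0.93 (SE 0.44, limma adjusted p = 0.691). On antagomir array 2 Serpinb1a lay above control arrays 1 and 3, and without control array 2 the difference was −0.52. The neutrophil list had a summed linear level of 1.09 to 4.10 in controls, and after the antagomir one of 1.37, 21.5 and 3.45. For the macrophage list it was 62.7 to 65.2 in controls, and after the antagomir 54.1, 96.9 and 34.5. Their part in the Serpinb1a values was not tested. Serpinb2 (PAI-2) was above background on 2 of 3 control arrays and 1 of 3 antagomir arrays and had a difference of −0.84 (SE 1.19), and without control array 3 it was 0.097. Serpinb3c (0.12, SE 0.27) and Serpinb6e (0.26, SE 0.51) were low in signal, and Serpinb6e was not well above background on antagomir array 2. Without antagomir array 3 their differences were −0.093 and −0.31.

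The alpha-1-antitrypsin genes were high on 1 array. Alpha-1-antitrypsin is the main plasma inhibitor of neutrophil elastase and a product of hepatocytes. Serpina1a had levels of −1.32, −0.48 and −1.15 in the controls and −2.19, −0.33 and 3.31 after the antagomir. Antagomir array 3 was 19.5-fold above the control mean, while antagomir array 1 was below every control array. Serpina1c, Serpina1d and Serpina1e were 19.6-, 16.2- and 17.6-fold above the control mean on antagomir array 3, and 0.44-, 0.42- and 0.50-fold of it on antagomir array 1. The differences between groups were 1.24 (SE 1.34) for Serpina1a, 1.23 (SE 1.33) for Serpina1c, 1.08 (SE 1.29) for Serpina1d and 1.28 (SE 1.25) for Serpina1e. All 4 turned sign without antagomir array 3, to −0.28, −0.29, −0.39 and −0.15 in that order. The 4 genes are near copies and not independent readings: the Serpina1a and Serpina1c probes differ in 1 of 51 overlapping bases. Other probes of Serpina1a and Serpina1e, at levels of 0.80 and 1.36 on antagomir array 3, were above −3.18 to −2.70 and −1.76 to −1.52 on control arrays. Serpina1f, a more distant copy, was above background on 1 control array and 3 antagomir arrays, with a difference of 1.18 (SE 0.50) and 0.59 without antagomir array 3.

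Other plasma serpins of the liver had the same array high. Serpinc1, the gene of antithrombin, the heparin-dependent inhibitor of thrombin and factor Xa, had levels of −4.08, −3.46 and −4.36 in the controls and −4.84, −4.83 and −0.32 after the antagomir, in array order. It was above background on all 3 control arrays and, of the antagomir arrays, on array 3 alone. Its difference was 0.64 (SE 1.25, 95% interval −2.42 to 3.70, limma adjusted p = 0.857), and −0.86 without antagomir array 3. Serpina3k, the gene of kallikrein-binding protein, was well above background on control arrays 1 and 2 and on antagomir array 3. On antagomir array 3 it was 34.6-fold above a control mean that takes in the dim reading of control array 3. The Serpina3k difference was 0.79 (SE 1.89), and −1.37 without antagomir array 3. Serpina3m was 4.46-fold above its control mean on antagomir array 3. Its difference was 0.57 (SE 0.74), and −0.22 without that array. Serpind1, the gene of heparin cofactor II, a thrombin inhibitor, had levels of −2.99, −2.47 and −3.48 in controls and −2.47, −2.69 and −1.75 with the antagomir. For Serpind1 the difference was 0.68 (SE 0.35, limma adjusted p = 0.691) and 0.40 without antagomir array 3.

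Part of the liver marker list was high on the same array. Of its 7 genes 5 were tested, and their summed level was 6.98 to 16.1 in the controls, and after the antagomir it was 8.91, 13.6 and 28.3 in array order. Alb (albumin) was 45.1-fold and Ttr (transthyretin) 7.88-fold above the control mean on antagomir array 3, and below the control mean on antagomir arrays 1 and 2, where Alb was not well above background. Apoa2 was 2.24-fold above it on antagomir array 3. Ahsg was higher on control array 3 (2.29-fold) than on antagomir array 3 (1.61-fold). Cyp2e1 was high on several arrays, at 15.6-fold on antagomir array 3, 14.0-fold on antagomir array 2 and 5.38-fold on control array 3. The adipocyte list (6 of 7 members tested) averaged 3.41, 3.09 and 2.04 log2 above its control mean on those arrays, in that order. On control arrays 1 and 2 and antagomir array 1 that average was −1.74, −0.30 and 1.28. Of the 6 members tested, 1 was well above background on control array 1 and 4 on control array 2. The control mean of the adipocyte list therefore takes in dim readings. The probes of Serpina1a, Serpina1c, Serpina1e, Serpinc1 and Serpina3k hold 38.3% to 46.7% purines and that of Serpina1d 51.7%, where the median of all probes was 50%. The part of liver RNA and of signal quality on antagomir array 3 in these values was not tested, nor was that of adipocyte RNA.

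**Figure D3:**
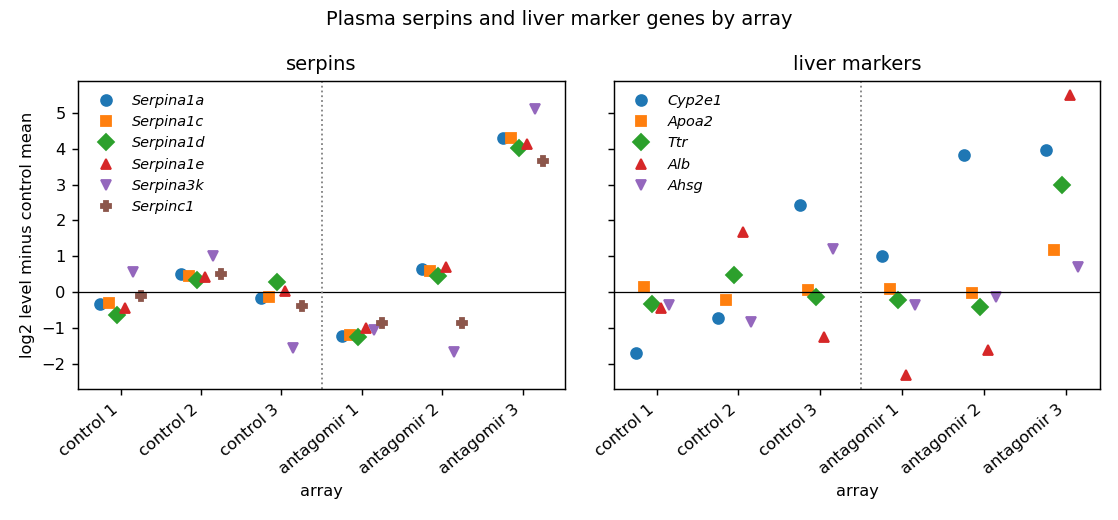
Points are log2 levels minus the control mean of 6 plasma serpins (left) and the 5 liver markers tested (right) on each array. On antagomir array 3 the 6 serpins lie between 12.6- and 34.6-fold above the control mean and Alb 45.1-fold above it, and on antagomir array 1 those 6 serpins lie below it, with Serpina3k and Serpinc1 not well above background there.

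Promoters of a pair of the co-varying copies are shown, as the 250 bases before the RefSeq start. For Serpina1a (chr12:103863620-103863869) and Serpina1e (chr12:103956898-103957147), both on the minus strand of GRCm38.p6, capitals mark GTTAAT, one arm of the site of the hepatocyte factor HNF1. It starts 21 bases before the Serpina1a start and 78 before that of Serpina1e. On either strand, 6.43% of all promoters hold it in this window, and those of Serpina1c and Serpina1d do too. So do those of Serpina3c and Serpinb8, which were 1.54- and 1.21-fold of their control means on antagomir array 3. The matches describe the sequences only.
Serpina1a: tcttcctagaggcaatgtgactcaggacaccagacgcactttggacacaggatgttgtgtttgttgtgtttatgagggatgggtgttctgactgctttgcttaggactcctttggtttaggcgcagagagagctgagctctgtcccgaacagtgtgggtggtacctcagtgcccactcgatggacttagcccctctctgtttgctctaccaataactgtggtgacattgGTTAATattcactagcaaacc
Serpina1e: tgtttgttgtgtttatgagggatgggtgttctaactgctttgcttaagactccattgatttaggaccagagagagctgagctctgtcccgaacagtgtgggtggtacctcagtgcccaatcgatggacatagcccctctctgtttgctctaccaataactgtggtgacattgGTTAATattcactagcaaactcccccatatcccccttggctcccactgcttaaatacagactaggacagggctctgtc

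In the Serpina3 cluster, 9 of 11 genes were tested and differed in which array was high. Serpina3n, an acute-phase gene whose protein inhibits granzyme B and elastase, had levels of 1.93, 2.35 and 1.12 in controls and 1.18, 0.60 and −0.84 with the antagomir. Antagomir array 1 lay just above control array 3, so the groups overlapped. The difference was −1.49 (SE 0.58, 95% interval −2.91 to −0.061, limma adjusted p = 0.681), 2.80-fold lower. It was −0.91 without antagomir array 3, on which Serpina3n was lowest at 0.16-fold of the control mean, opposite to Serpina1a on the same array. Serpina3i was at −1.16 (SE 0.76), with −0.039 on its other probe, and Serpina3h at −0.51 (SE 0.47). The Serpina3h and Serpina3i probes differ in 6 of 57 overlapping bases. Serpina3c, with every antagomir array above every control array, had a difference of 0.53 (SE 0.23), which was −0.00029 with quantile normalization. Serpina3b was at 0.37 (SE 0.47) and, without antagomir array 3, at −0.19.

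Serpina3g and Serpina3f were high on antagomir array 2. Serpina3g encodes Spi2A, an inhibitor of lysosomal cathepsins that lymphocytes and macrophages make on activation. It had levels of −0.27, −1.52 and −1.37 in the controls and −0.77, 3.51 and −2.36 after the antagomir, in array order. Serpina3f had levels of −4.20, −4.45 and −4.37 in controls and −3.02, 0.60 and −3.83 with the antagomir, with no overlap, though antagomir array 3 was not well above background. On antagomir array 2 the pair stood 23.7-fold and 30.6-fold above their control means. The differences were 1.18 (SE 1.47) for Serpina3g and 2.25 (SE 1.12) for Serpina3f, and without antagomir array 2 −0.51 and 0.91. A further probe that the files name Serpina3f lies 33.6 kb away in mm9, beside the Serpina3h probe, and had −0.24 (SE 0.76). The T and NK cell list, 6 of 7 members tested, had a summed level of 3.18 to 3.45 in the controls, and after the antagomir of 3.30, 36.1 and 4.09. Gzma (granzyme A) was 94.3-fold and Cd2 13.3-fold above the control mean on antagomir array 2. Other lists were also highest on antagomir array 2: the summed level of the neutrophil list was 21.5 (1.09 to 4.10 in controls), that of the macrophage list 96.9 (62.7 to 65.2), that of the platelet list 62.8 (19.6 to 26.3) and that of the mesothelial list 10.05 (3.29 to 5.60). The platelet list was also high on antagomir array 3, at 49.1. For the adipocyte list the summed level was 231 on antagomir array 2 (144 to 194 in controls). That sum was mainly Fabp4, at a level of 7.82 there and 7.17 to 7.59 in controls. As an average over members, the list was 3.09 log2 above its control mean on antagomir array 2 and 3.41 on antagomir array 3. That control mean takes in dim readings. The part of these cell types in the Serpina3g and Serpina3f values was not tested. Serpinb9, which killer cells also make, was 1.34-fold above its control mean there.

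**Figure D4:**
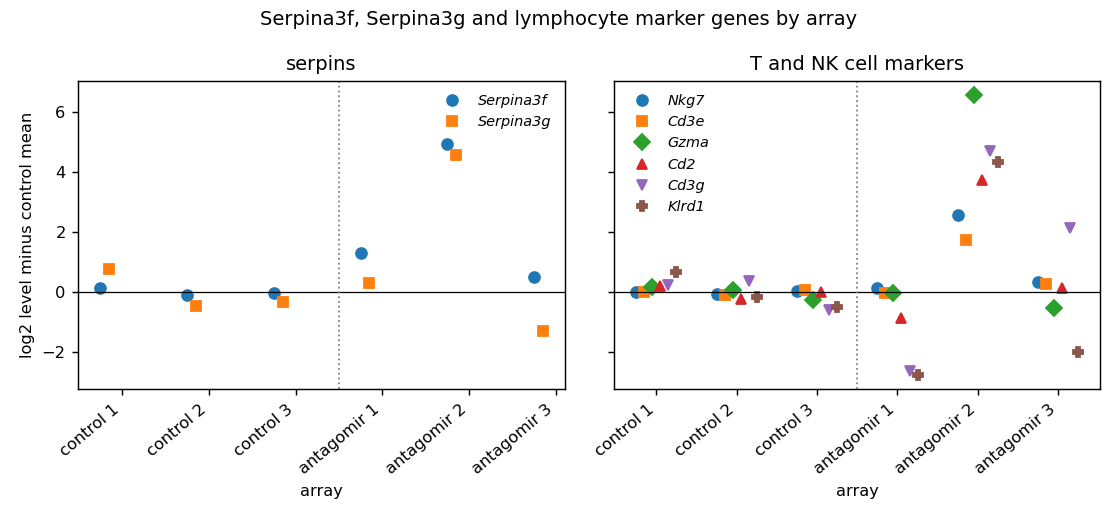
Points are log2 levels minus the control mean of Serpina3f and Serpina3g (left) and of the 6 T and NK cell markers tested (right) on each array. On antagomir array 2 Serpina3f is 30.6-fold, Serpina3g 23.7-fold and Gzma 94.3-fold above the control mean.

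The 250 bases before the start are shown for Serpina3f (chr12:104214294-104214543, the upstream of its RefSeq starts), Serpina3g (chr12:104235897-104236146) and Serpina3n (chr12:104406458-104406707), all on the plus strand of GRCm38.p6, because the first pair were high on antagomir array 2 and the last was not. Capitals mark TTCNNNGAA, the form of site that STAT factors bind, which reads the same on both strands. It starts 121 bases before the Serpina3f start and 33 before that of Serpina3g, and 7.02% of all promoters hold it in this window. In the Serpina3n window these letters are not found. Windows of Serpina3i, Serpina11, Serpina1f, Serpinb2 and Serpinb6a hold them too, as does that of Serpinb9c, which was not tested. On antagomir array 2 the first of these was 1.17-fold of its control mean. Serpina11 was 0.89-fold, Serpina1f 1.45-fold, Serpinb2 1.52-fold and Serpinb6a 1.02-fold of theirs. The matches describe the sequences only.
Serpina3f: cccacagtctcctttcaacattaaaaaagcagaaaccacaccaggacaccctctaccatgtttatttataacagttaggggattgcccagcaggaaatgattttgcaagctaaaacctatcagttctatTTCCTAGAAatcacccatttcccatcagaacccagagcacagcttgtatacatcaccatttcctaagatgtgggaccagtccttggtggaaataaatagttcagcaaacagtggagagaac
Serpina3g: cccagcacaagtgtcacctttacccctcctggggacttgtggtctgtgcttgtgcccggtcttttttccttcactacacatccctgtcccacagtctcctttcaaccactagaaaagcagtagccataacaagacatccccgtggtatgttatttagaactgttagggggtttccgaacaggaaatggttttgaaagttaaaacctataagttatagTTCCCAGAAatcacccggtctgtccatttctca
Serpina3n: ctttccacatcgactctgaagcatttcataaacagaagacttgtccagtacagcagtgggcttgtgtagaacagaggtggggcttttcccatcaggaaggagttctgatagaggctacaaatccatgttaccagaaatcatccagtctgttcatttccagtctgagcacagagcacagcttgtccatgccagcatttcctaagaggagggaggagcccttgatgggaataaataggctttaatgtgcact

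Of the other clade A genes, Serpina10 and Serpina9 had an unadjusted p under 0.05 in opposite directions. Serpina10 encodes the protein Z-dependent inhibitor of factor Xa. Its levels were −3.40, −3.89 and −3.45 in controls and −3.04, −3.05 and −2.35 with the antagomir. Each antagomir array lay above each control array. The difference was 0.77 (SE 0.26, limma adjusted p = 0.654), 0.54 without antagomir array 3, and 0.11 with normexp and quantile normalization. Serpina9, known from germinal centre B cells, had levels of 0.057, −0.37 and −0.29 in controls and −0.62, −0.55 and −0.74 with the antagomir, again with no overlap. The Serpina9 difference was −0.43 (SE 0.16, limma adjusted p = 0.675). Serpina11 had 0.26 (SE 0.23), 0.066 without antagomir array 3, and 0.21 on its other probe.

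Of the 26 genes not tested, 16 were well above background on 0 arrays. They were 3 clade A genes, Serpina12, Serpina3a and Serpina7, and 13 of clade B, among them Serpinb5 (maspin), Serpinb7, Serpinb11 and Serpinb13, which are known from epithelia, and 5 copies of the Serpinb9 group. The other 10 were above background on 1 or 2 arrays. In 9 of these no control array passed, and the array that did was antagomir array 3, which stands apart at low signal, in 8 of them and antagomir array 1 in 1. Serpinf2, the gene of alpha-2-antiplasmin, was above background on 1 control and 1 antagomir array.

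A list of 52 genes, 41 of them tested, held proteases that serpins inhibit, their receptors and the receptors that clear serpin complexes. It also held other genes of clotting and proteolysis, such as Pros1. The median was −0.019, from 23 lower members and 18 higher ones. At an unadjusted limma p under 0.05 there were 7 lower (4.16% of all genes) and 1 higher (3.05%), and 0 passed over all genes. The 6 members with the smallest p were all lower. Ctsk, the collagen-cutting cathepsin K, had levels of 3.44, 3.91 and 2.45 in controls and 0.68, 1.56 and 0.72 with the antagomir, a difference of −2.28 (SE 0.44, limma adjusted p = 0.517). Prss23 (−1.20, SE 0.32), the thrombin receptor F2r (−0.90, SE 0.26) and Lrp1 (−0.80, SE 0.25), the receptor that takes up serpin and protease complexes, followed. Plau, the gene of urokinase, which protease nexin-1 inhibits, had −0.78 (SE 0.25) and was above background on 1 of 3 antagomir arrays. Pros1, the gene of protein S, had −0.49 (SE 0.17). Plat, tissue plasminogen activator, had −0.47 (SE 0.18), in the same direction as its inhibitor Serpini1. F10, the gene of factor X, was the 1 higher member, at 0.31 (SE 0.12). The list's median was −0.27 with quantile normalization.

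**Figure D5:**
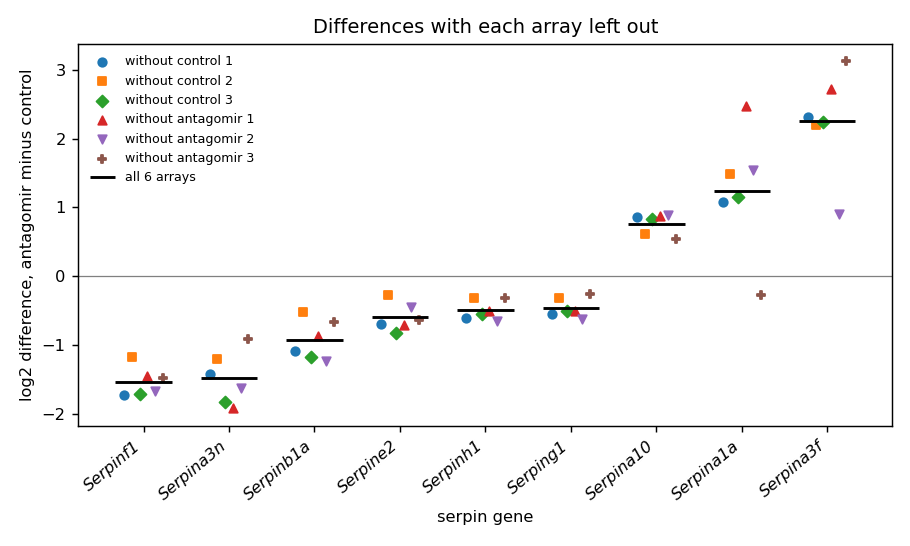
Black bars are the log2 differences of 9 serpins with all 6 arrays and points those with 1 array left out. Serpinf1 stays between −1.73 and −1.17, and Serpina1a is at −0.28 when antagomir array 3 is dropped and at 2.47 when antagomir array 1 is.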

How the data were processed

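RNA of 6 heart samples, 3 per group, was measured on 1-colour Cy3 arrays. Per the submitters' processing notes and the file headers, the deposited scanner files came from Agilent Feature Extraction 10.7.1.1 and hold a processed signal as an intensity, corrected for background within the array. The other values used, also deposited, are flags of 0 or 1 per spot, per the file headers. The authors' deposited table holds raw intensities and normalized log2 values, whose sorted values agree between columns to within 0.00143, with no method stated in the sources used here.

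Control spots were dropped, as were 154 to 233 outlier spots on each array, and repeat spots were averaged on the log2 scale. Names were updated by RefSeq accession (GRCm38.p6). The 75th percentile of each array was subtracted. A probe was tested where 3 or more of the 6 arrays read it well above background, and each gene was read from its probe of highest mean. Depth on arrays is signal over background: 55.2% to 73.6% of gene spots were well above it and 0 were saturated. The comparison used limma 3.58.1 (R 4.3.3), two-sided, and its steps were tested on simulated data. Tables used Python 3.11.15 and pandas 2.3.3. All 6 arrays were on 1 slide, read in 1 scan. Named genes are the tested serpins, with full values for those with an unadjusted p under 0.05 and for Serpinh1, Serpine2, Serping1, Serpinf1, Serpina3n, Serpinc1 and Serpind1, and up to 6 genes of smallest p per other list. Values of other genes, and those of Serpina1, Serpina3f, Serpina3g and Serpina3k by array, were chosen after they were seen, as were the promoter motifs. The values of 1 tested serpin are not reported here, though it is in the counts and medians. Members, lists and settings were chosen with earlier results of these data known. Promoters are from RefSeq and cover 50 of the 61 genes. Probe positions are mm9, per the file headers, and their place within exons was not analysed here. Alternatives were other background correction, scaling, filters, probe summaries, variance models, array weights, the replicate number or slide row as a block, the authors' table and each array left out.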

Additional observations from a re-analysis of the deposited data

How the results depend on the processing

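Over 19 other settings, 41 single-gene values (35 serpins and 6 genes of the protease list) were followed, and in 23 of them no setting turned the sign, Serpinf1, Serpine2, Serpina3n, Serpinh1, Serping1 and Serpina10 among these. No serpin passed the adjusted threshold in any of these settings. The number of genes passing over all genes was 3, and 0 with normexp and quantile normalization, 1 with quantile normalization, 1 with the authors' table, 1 with no filter, 0 above background on all 6 arrays, 6 with every probe on its own, 8 with array weights (whose estimation stopped short of its convergence tolerance), 0 with the replicate block, 0 with the slide row as a block, 199 with each array centred on its median and 0 to 3 with 1 array left out. Centring on the median takes the all-gene median, 0.09 as reported, to −0.38, and with it the serpin median was −0.35, that of clade B −0.58, that of clades C to I −0.95 and that of the protease list −0.49, with 35 of its members lower. With no filter, which brings in 26 dim serpins, the serpin median was 0.57. With quantile normalization and with the authors' table, the clade B median was −0.29 and the protease list median −0.27. With 1 array left out, 16 to 26 serpins were lower, the serpin median was −0.27 to 0.25, and that of clade A −0.22 to 0.88.

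Signs turned for Serpina11 (−0.21), Serpina3b (−0.097), Serpinb3c (−0.35), Serpinb6e (−0.21) and Serpinb8 (−0.22) with each array centred on its median. With quantile normalization they turned for Serpina3c (−0.00029), Serpinb3c (−0.61) and Serpinb6e (−0.27), and with the authors' table for Serpina3c (−0.0014), Serpinb3c (−0.62) and Serpinb6e (−0.27). With normexp and quantile normalization they turned for Serpinb3c (−0.15) and Serpinb6e (−0.11), and with array weights for Serpina3k (−0.29), Serpinb3c (−0.013), Serpinb6b (0.054) and Serpinb6c (0.013). The causes were not tested. With 1 array left out the differences ran from −0.28 to 2.47 for Serpina1a, −0.29 to 2.44 for Serpina1c, −0.39 to 2.23 for Serpina1d, −0.15 to 2.42 for Serpina1e, −0.19 to 0.66 for Serpina3b, −0.51 to 2.43 for Serpina3g, −1.37 to 2.02 for Serpina3k, −0.22 to 1.25 for Serpina3m, −2.0 to 0.097 for Serpinb2, −0.093 to 0.37 for Serpinb3c, −0.19 to 0.021 for Serpinb6b, −0.31 to 0.68 for Serpinb6e, −0.35 to 0.10 for Serpinb9 and −0.86 to 1.40 for Serpinc1.

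Arrays of the same replicate number correlated in their deviations at 0.22, 0.14 and −0.049, and control array 3 did not correlate best with its own number, so the numbers are not taken as pairs. The replicate block left the serpin median at 0.12 and the count of genes passing at 0, against 3. Dim probes limit what can be read for 26 of 61 serpins.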
